A study of Mus musculus with 7 samples.

Results

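The 3 Tet genes and Tdg encode the enzymes that make and remove 5-formylcytosine (5fC), and the 5fC pulldown signal over these 4 loci is described here across 6 libraries of mouse embryonic stem (ES) cells. Tet1, Tet2, Tet3 and Tdg were taken by name, 4 of the 22367 protein-coding genes of GENCODE M1 on the mouse mm9 assembly. At each gene the promoter (1 kb either side of the gene start), the gene body from there to the gene end, and 20 kb on each side of the gene were examined.

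5fC was captured with a biotinylated aldehyde-reactive probe and sequenced in 3 groups of J1 cells (129S4/SvJae), each with 2 replicates and 6 pulldown libraries in all. The wild type cells grew on irradiated embryonic fibroblast feeders. The siRNA control cells received a non-targeting siRNA and the TDG KD cells a pool of 4 siRNAs against Tdg, both without feeders and over repeated rounds of transfection. All pulldowns were compared by the authors with 1 genomic input library, so values from different libraries share that input. The difference between wild type and siRNA control cannot be told apart from feeders and transfection, because all of these change together. The files hold DNA enrichment and no RNA, so Tdg transcript, and with it the knockdown, was not measured here.

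TET enzymes oxidise 5-methylcytosine (5mC) to 5-hydroxymethylcytosine, then to 5fC and 5-carboxylcytosine. TDG, a DNA glycosylase, cuts out the last 2 forms, and base excision repair restores an unmodified cytosine. Tet1 and Tet2 are the Tet genes best known from ES cells, whereas Tet3 is known for its role in the oocyte and zygote.

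Uniquely placed reads numbered 20.4 to 45.9 M per pulldown library and 26.5 M in the input. The domain caller assigned each stretch of 100 bp bins to an enriched, a background or an unconfident state, and the libraries differed greatly in how they were cut. Enriched domains had a median width of 700 bp in wild type 1, the deepest library, of 24550 bp in siRNA control 2 and of 5900 to 9400 bp in the other 4 libraries. TDG KD 1, the shallowest library, had 504.9 Mb in the unconfident state, against 0.214 to 6.30 Mb in the others. A level below is the mean domain value minus the library mean, scaled to 100 kb and 1 M reads, so 0 is the library average and negative values lie under it.

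Tet1 lies on chr10:62267318-62361866 (minus strand, 94.5 kb) and Tet2 on chr3:133126643-133207354 (minus strand, 80.7 kb). Tet3 lies on chr6:83312367-83391672 (minus strand, 79.3 kb) and Tdg on chr10:82092573-82113544 (plus strand, 21.0 kb). The 250 bases before each annotated start are printed because CpG sites, in capitals, are where most 5mC of mammalian DNA lies. Tet1 has a second sequence because RefSeq places its start 11.8 kb inside the GENCODE M1 gene, and that window behaved differently from the first.

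Tet1, GENCODE M1 start, chr10:62361867-62362116, minus strand: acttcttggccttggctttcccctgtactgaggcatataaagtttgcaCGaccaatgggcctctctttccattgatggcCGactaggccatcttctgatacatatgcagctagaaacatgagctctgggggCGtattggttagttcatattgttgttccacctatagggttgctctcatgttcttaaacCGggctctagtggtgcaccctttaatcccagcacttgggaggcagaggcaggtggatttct
Tet1, RefSeq start, chr10:62350073-62350322, minus strand: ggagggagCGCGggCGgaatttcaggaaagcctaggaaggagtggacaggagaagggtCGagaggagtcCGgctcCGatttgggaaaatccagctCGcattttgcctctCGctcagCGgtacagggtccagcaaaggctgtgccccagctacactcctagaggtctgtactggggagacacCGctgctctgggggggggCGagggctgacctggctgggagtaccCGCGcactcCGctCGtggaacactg
Tet2, chr3:133207355-133207604, minus strand: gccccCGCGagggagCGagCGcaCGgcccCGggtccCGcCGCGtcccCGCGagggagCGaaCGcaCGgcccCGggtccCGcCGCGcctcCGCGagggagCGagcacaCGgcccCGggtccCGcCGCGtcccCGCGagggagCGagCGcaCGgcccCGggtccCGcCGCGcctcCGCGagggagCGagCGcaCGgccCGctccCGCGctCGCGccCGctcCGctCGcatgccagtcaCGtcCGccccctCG
Tet3, chr6:83391673-83391922, minus strand: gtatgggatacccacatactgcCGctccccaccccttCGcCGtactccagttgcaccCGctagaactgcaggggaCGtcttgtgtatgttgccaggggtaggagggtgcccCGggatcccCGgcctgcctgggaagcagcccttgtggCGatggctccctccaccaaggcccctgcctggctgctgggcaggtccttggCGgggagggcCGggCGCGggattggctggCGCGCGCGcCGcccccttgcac
Tdg, chr10:82092323-82092572, plus strand: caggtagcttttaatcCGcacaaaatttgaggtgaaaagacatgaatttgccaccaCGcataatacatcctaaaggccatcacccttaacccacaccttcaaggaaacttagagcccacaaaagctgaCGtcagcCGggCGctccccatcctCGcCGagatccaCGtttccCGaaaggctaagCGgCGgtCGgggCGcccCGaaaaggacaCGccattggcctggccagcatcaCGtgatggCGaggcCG

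The 4 starts differed widely in CpG content. The 250 bases before the Tet2 start held 51 CpG sites, at the 99.96 percentile of all protein-coding promoters, the Tdg sequence 18, Tet3 17 and the first Tet1 sequence 4. The sequence before the RefSeq start of Tet1 held 15. Over the whole 2 kb promoter window Tet2 had 141 CpG sites, Tdg 109, Tet3 86 and Tet1 23, and the window around the RefSeq start of Tet1 had 87. The promoters of Tet2, Tet3 and Tdg each held a 200 bp window with over 50% G+C and an observed-to-expected CpG ratio above 0.6, and that of Tet1 at its GENCODE start did not.

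The plot of states along the loci shows the main contrast among the 4 genes. Enriched domains covered 57.4% of the Tet3 body in wild type 1, as 24 domains of at most 7.0 kb, and 89.3% to 100.0% of it in wild type 2, both siRNA controls and TDG KD 2, as 1 or 2 broad domains. Unconfident stretches covered 90.4% of the Tet3 body in TDG KD 1. In the bodies of Tet1, Tet2 and Tdg enriched domains covered 11.5% to 28.4% in the wild type libraries and 0% to 6.41% in the 4 siRNA libraries.

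**Figure D1:**
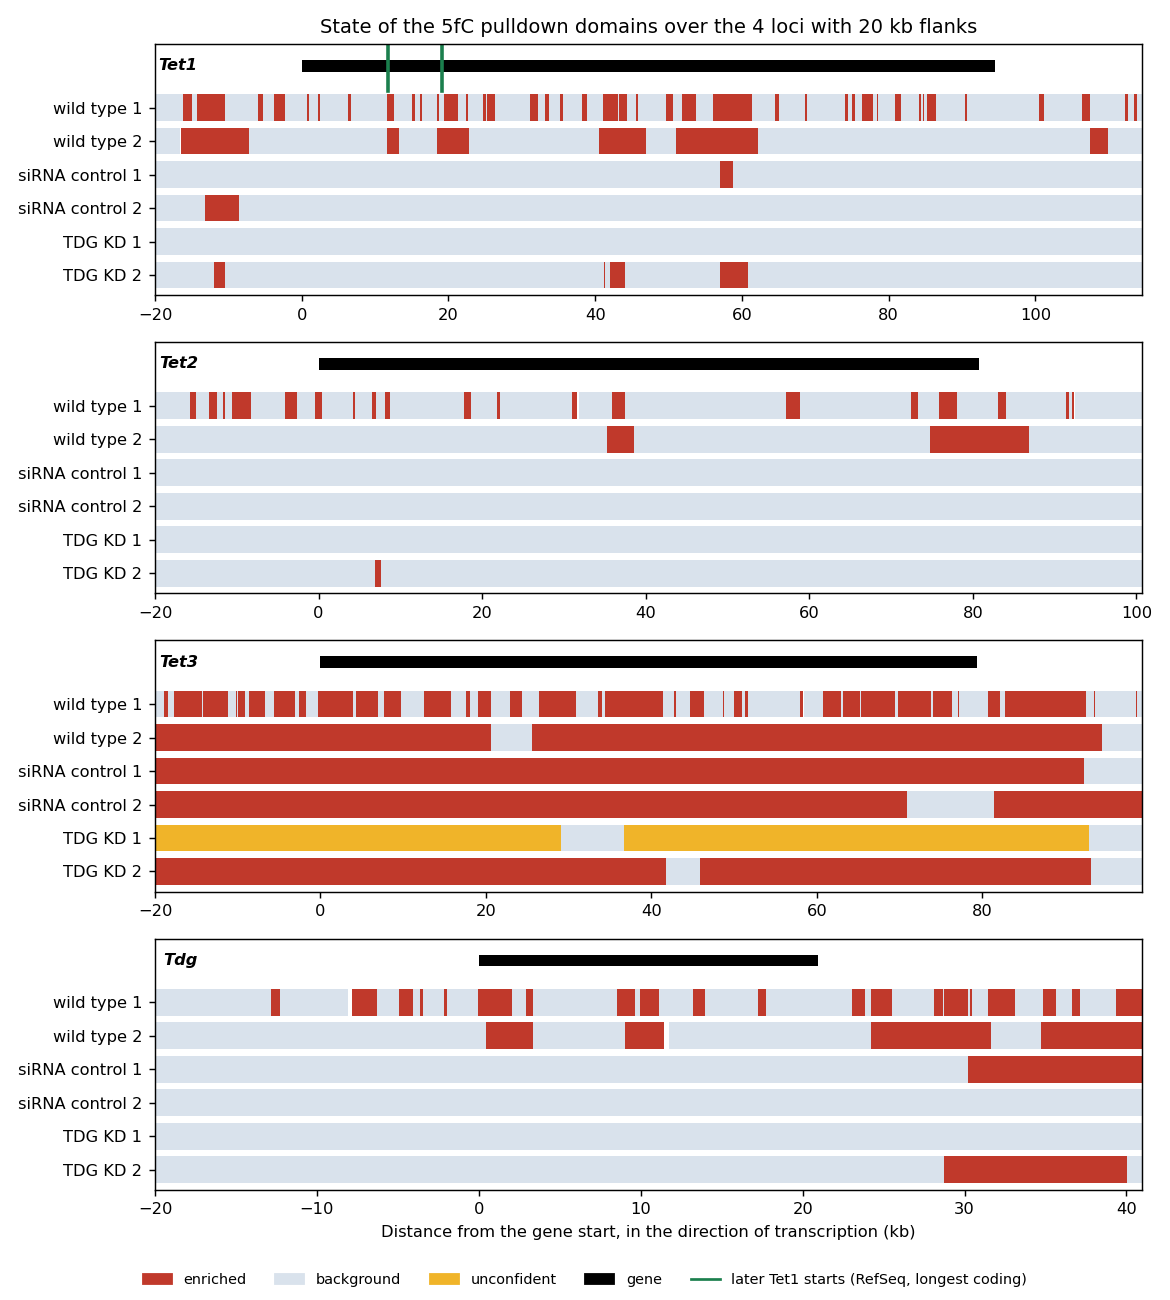
State of the domains over each locus in the 6 libraries, with distance from the gene start in kb on the horizontal axis, the gene as a black bar and later Tet1 starts as green lines. Red marks enriched, grey-blue background and amber unconfident domains. Tet3 is mostly red in 5 libraries, in many narrow blocks in wild type 1, and mostly amber in TDG KD 1, whereas Tet2 has 1 enriched domain of 0.7 kb in all siRNA libraries together.

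Tet3 was the only one of the 4 genes whose GENCODE start lay in an enriched domain in more than 1 library. That domain was 4.2 kb wide in wild type 1, 43.0 kb in wild type 2, 112.3 kb in siRNA control 1, 230.9 kb in siRNA control 2 and 88.8 kb in TDG KD 2. In TDG KD 1 the start lay in an unconfident domain of 150.6 kb. The enriched share of the Tet3 promoter was 63.9% in wild type 1, 100.0% in wild type 2 and both siRNA controls, 0% in TDG KD 1 and 100.0% in TDG KD 2. At least 50% of the promoter was thus enriched in all libraries but TDG KD 1, as it was for 26.0% of the 22074 promoters with a value in all 6 libraries.

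The Tet3 gene body followed its promoter. Its enriched share was 57.4% and 93.7% in wild type, 100.0% and 89.3% in the siRNA controls, and 0% and 94.8% in TDG KD. In TDG KD 1, 90.4% of the body was unconfident. Of the body, 46.9% was enriched in 5 libraries, 41.4% in 4 and the remaining 11.7% in 3. At least 50% of the body was enriched in the same 5 libraries for 31.2% of all gene bodies tested, and for 17.3% of the 4719 bodies of 50 kb or more.

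The stretch enriched in at least 3 libraries around Tet3 ran from the edge of the upstream flank to 93.1 kb downstream of the start, 113.1 kb in all (chr6:83298551-83411672). It passed beyond the gene end into Bola3, a protein-coding gene whose body was enriched over 94.0% to 100.0% of its length in the same 5 libraries. It also held the start of the long non-coding RNA gene B230319C09Rik, which lies 77 bp from the Tet3 start on the opposite strand, so the promoter window of Tet3 is shared with it. Mob1a, the next gene, lies past the stretch, and its promoter was enriched over 35% in wild type 1 and over 0% in the other 5 libraries. Of the exon bases of Tet3, 28.5% were enriched in siRNA control 2, against 99.1% of its intron bases, and the background gap of that library ran from 70.9 to 81.4 kb, over the gene end. In the other 4 libraries with enriched domains there, exons were enriched over 70.1% to 100.0%.

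Tet1 had no enriched domain at its GENCODE start in any library. The enriched share of that promoter was 12.4% in wild type 1 and 0% in the other 5. The promoter level was 0.993 and -4.92 in wild type, -8.11 and -5.05 in the siRNA controls, and -10.4 and -11.0 in TDG KD. The 2 knockdown libraries were the lowest and the wild type libraries the highest, with no overlap between TDG KD and the other groups. The TDG KD values were those of single background domains, 223.0 kb wide in TDG KD 1 and 51.7 kb in TDG KD 2. How many promoters separate in this way was not counted, so this order is not read as an effect of the knockdown. Of the bases of this window, 74.1% began a 40-base stretch found once in mm9, against 92.2% to 99.4% for the promoters of the other 3 genes.

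**Figure D2:**
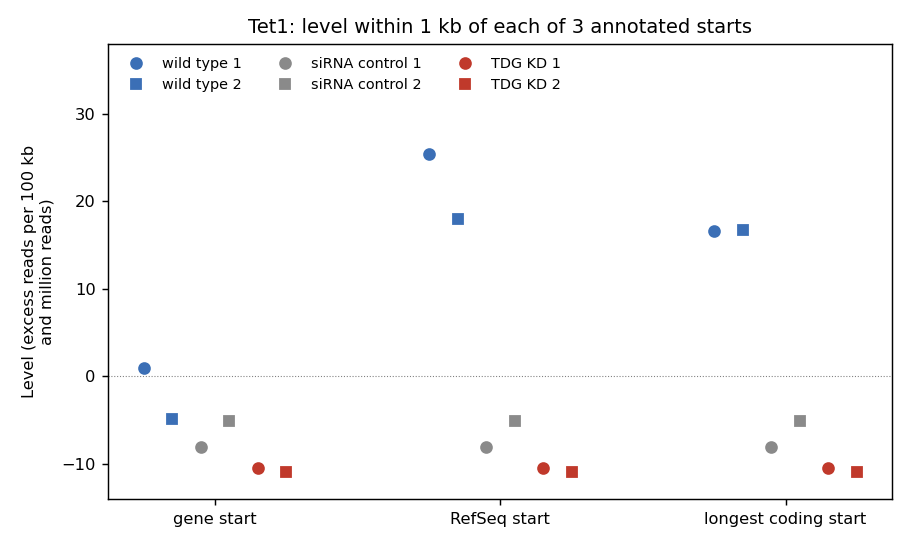
Level within 1 kb of each of 3 annotated Tet1 starts (excess reads per 100 kb and 1 M reads), 1 point per library, coloured by group. At both later starts the 2 wild type points lie between 16.7 and 25.5 and the 4 siRNA points between -11.0 and -5.05.

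The later Tet1 starts gave other values in wild type cells. At the RefSeq start the level was 25.5 and 18.0 in wild type, and the start lay in enriched domains of 0.9 and 1.6 kb. Of that window 45% and 57.05% were enriched. At the start of the longest coding transcript, 19.1 kb into the gene, the wild type levels were 16.7 and 16.8, with 47.6% and 82.6% of the window enriched. In each siRNA library all 3 starts lay in 1 background domain of 51.7 to 223.0 kb, so they shared a single value there and the enriched share was 0% at each. The window at the RefSeq start was added after its position had been compared with GENCODE, and no test was run on it.

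Over the Tet1 gene body the level was 8.27 and 3.26 in wild type, -7.00 and -5.05 in the siRNA controls, and -10.4 and -7.42 in TDG KD. The wild type values lay above those of all 4 siRNA libraries. Over all bodies the median siRNA control minus wild type difference was -5.40, and how many bodies separate in this way was not counted. The enriched share of the body was 28.4% and 25.2% in wild type, 1.82% and 0% in the siRNA controls, and 0% and 6.41% in TDG KD. No library reached 50% of the Tet1 body, as in 65.6% of bodies of 50 kb or more.

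A pair of Tet1 stretches was enriched in 4 libraries. The first, 57.1 to 58.8 kb from the start (chr10:62303114-62304813, 1.7 kb), was enriched in both wild type libraries, siRNA control 1 and TDG KD 2, and lay almost wholly in an intron, with 0.765% exon. It was the only enriched domain over Tet1 and its flanks in siRNA control 1, where the level of the domain was 36.7. In TDG KD 2 a domain of 3.8 kb began at the same bin, reached into the neighbouring exon (55.6% of its bases are exon), and had a level of 29.3. The 1.7 kb stretch, the part of Tet1 most often called, held 26 CpG sites, or 15.3 per kb against 11.8 per kb over the Tet1 body. Its middle 300 bases, printed here, held 2 of them.

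Tet1 intronic stretch, chr10:62303814-62304113, minus strand: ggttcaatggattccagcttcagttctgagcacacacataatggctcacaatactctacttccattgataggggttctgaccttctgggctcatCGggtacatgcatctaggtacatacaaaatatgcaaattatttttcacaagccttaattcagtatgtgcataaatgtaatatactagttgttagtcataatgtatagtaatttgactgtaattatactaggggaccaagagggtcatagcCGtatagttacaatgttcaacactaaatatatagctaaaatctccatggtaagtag

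The second stretch lay 10.4 to 11.9 kb upstream of the Tet1 start (chr10:62372314-62373813, 1.5 kb). It was enriched in both wild type libraries, siRNA control 2 and TDG KD 2, overlapped no annotated gene and held 16 CpG sites. Across the 134.5 kb of gene and flanks, 60.7% of Tet1 was enriched in no library. Ccar1, the gene downstream of Tet1, had 55% of its promoter enriched in wild type 1 and 14.9% in wild type 2, and 0% in the 4 siRNA libraries.

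Tet2 had the promoter richest in CpG sites and little 5fC enrichment. Its start lay in an enriched domain of 0.9 kb in wild type 1 and in background domains of 49.1 to 753.9 kb in the other 5 libraries. The enriched share of the promoter was 45.0% in wild type 1 and 0% elsewhere. The promoter level was 15.9 and -1.46 in wild type, -5.28 and -2.39 in the siRNA controls, and -5.65 and -7.58 in TDG KD. The wild type replicates differed by more than wild type 2 did from any siRNA library.

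Over the Tet2 body the enriched share was 11.9% and 11.5% in wild type, 0% in both siRNA controls, and 0% and 0.878% in TDG KD. No part of Tet2 or its flanks was enriched in 3 or more libraries, and 76.2% of it was enriched in none. The enriched stretches of the wild type libraries fell more on exons than on introns. In wild type 1, 42.4% of exon bases and 8.04% of intron bases were enriched, and in wild type 2 these shares were 53.4% and 6.20%. Of the Tet2 exon bases 99.2% began a 40-base stretch found once in mm9, against 90.0% over its body. The same shares over all genes were not counted. The GENCODE annotation gives another Tet2 start, 55.7 kb into the gene, for the transcript with the longest coding sequence, while RefSeq places its start at the GENCODE gene start. No protein-coding gene overlapped the flanks of Tet2.

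Within the Tdg gene only the wild type libraries had enriched domains. In wild type 1 its start lay in an enriched domain of 2.1 kb. In wild type 2 a pair of enriched domains lay inside the gene, from 0.441 to 3.34 kb and from 9.04 to 11.4 kb after the start. In the 4 siRNA libraries the start lay in background domains of 217.0 to 512.8 kb that covered the whole gene. The enriched share of the promoter was therefore 53.0% and 28.0% in wild type and 0% in the other 4, and the share of the body 24.7% and 23.7% in wild type and 0% in the other 4.

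The Tdg promoter level was 19.9 and -1.13 in wild type, -9.02 and -5.09 in the siRNA controls, and -7.06 and -11.5 in TDG KD. In 3 of the 4 siRNA libraries the promoter stood at the 2.72 to 5.10 percentile of all promoters, and in TDG KD 1 at the 11.6 percentile. Over the body the wild type levels were 3.88 and 1.47, and the siRNA values were those of the promoter because 1 domain covered both. Both wild type libraries lay above the 4 siRNA libraries in promoter and body. Over all genes the median siRNA control minus wild type difference was -10.9 for promoters and -5.40 for bodies. How many genes separate in this way was not counted.

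Of the Tdg exon bases, 49.0% began a 40-base stretch found once in mm9, against 99.2% to 99.7% for the exons of the Tet genes. The share was 92.2% over the Tdg promoter and 82.6% over its body. Since the authors kept uniquely placed reads, values over the Tdg exons rest on fewer positions. The 5fC libraries were sequenced for 40 cycles, the length used for this count.

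The 4 siRNAs of the knockdown pool are shown to place the agent on the gene it was aimed at. They are written as the target strand, and capitals mark bases 12 to 18, which pair with bases 2 to 8 of the guide strand, its seed.

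siRNA 1, exon 8, chr10:82110102-82110120: gaagugcaguaUACAUUUg
siRNA 2, exon 7, chr10:82107393-82107411: gaguaaagguuAAGAACUu
siRNA 3, exon 9, chr10:82110704-82110722: caaagaagaugGCUGUUAa
siRNA 4, across the junction of exons 5 and 6, chr10:82107035-82107198: gcaaggaucugUCUAGUAa

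All 4 lay in the coding sequence of the 10-exon transcript Tdg-001. They matched mm9 exactly at 3 to 5 places each, so the sequence they share with Tdg occurs elsewhere in the genome. The first 3 include their own Tdg exon in that count, and siRNA 4, which spans a splice junction (its coordinates include the intron), matched only at the other places. In no siRNA library did an enriched domain touch the exons that hold these sites.

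Downstream of Tdg, enrichment returned. Within the 20 kb after the gene end, 44.2% and 68.2% of bases were enriched in wild type, 53.7% and 0% in the siRNA controls, and 0% and 56.5% in TDG KD. The stretches found in at least 3 libraries lay 28.7 to 33.1 kb and 34.7 to 41.0 kb from the Tdg start, inside Glt8d2. This gene on the opposite strand spans that whole flank and reaches the end of Tdg. Upstream of Tdg, 17.8% was enriched in wild type 1 and 0% in the other 5 libraries, and the nearest gene there, 1190007I07Rik, had 67% of its promoter enriched in wild type 1 and 0% elsewhere.

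**Figure D3:**
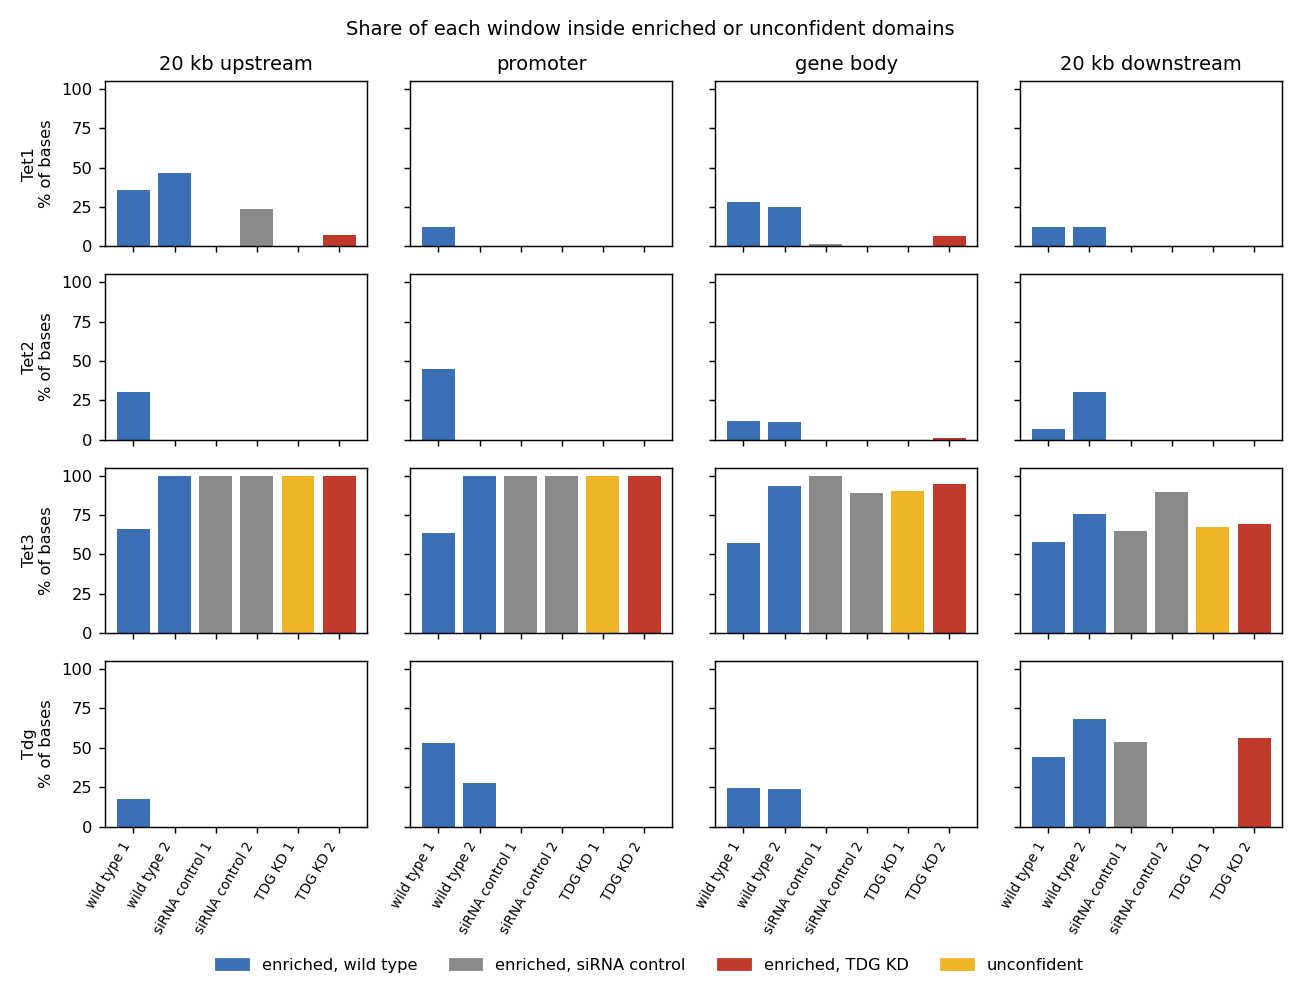
Share of the bases of each window in enriched domains (blue, grey and red bars by group) and in unconfident domains (amber), in percent, 1 bar per library. Tet3 fills 57.4% to 100.0% of its promoter, body and upstream windows in all libraries if amber is counted, and the Tdg body and Tet2 promoter are empty in the 4 siRNA libraries.

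With promoters set at the GENCODE starts, at least 50% was enriched for 2 of the 4 genes in wild type 1 (Tet3 and Tdg). In wild type 2, both siRNA controls and TDG KD 2 this held for Tet3 alone. Over all promoters the shares were 53.1%, 47.0%, 43.4%, 39.8% and 53.7% in those libraries. In TDG KD 1 none of the 4 reached that share, where 15.3% of all promoters did. The promoters of Tet1 and Tet2 reached it in no library, like 30.7% of all promoters, and that of Tdg in wild type 1 alone, like 6.03%. For Tet1 this holds at the GENCODE start. In wild type 2 the windows at its RefSeq and longest coding starts reached 57.05% and 82.6%. For gene bodies Tet3 alone reached 50% in those 5 libraries, against 38.1%, 47.0%, 45.5%, 44.4% and 47.2% of all bodies in the same order and 15.6% in TDG KD 1. The bodies of Tet1, Tet2 and Tdg reached it in no library, as did 43.3% of all bodies. Among promoters that hold a window rich in CpG sites, as those of Tet2, Tet3 and Tdg do, 29.6% were enriched in the 5 libraries other than TDG KD 1 and 19.6% in none. Among promoters without such a window, like that of Tet1 at its GENCODE start, these shares were 18.3% and 54.5%.

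On the continuous scale, with promoters at the GENCODE starts, Tet3 was the highest of the 4 genes in all 6 libraries. Its promoter level was 33.4 and 18.1 in wild type, 14.7 and 6.03 in the siRNA controls, and 7.43 and 20.8 in TDG KD. These values lay above the median promoter of their library and inside the middle 50% of promoters, at the 62.2 to 70.8 percentile. The Tet3 body level was 26.3 and 17.5, 14.7 and 5.20, and 5.34 and 18.8 in the same order. At the RefSeq start of Tet1 the wild type levels were 25.5 and 17.98, the second close to the 18.05 of the Tet3 promoter in wild type 2.

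**Figure D4:**
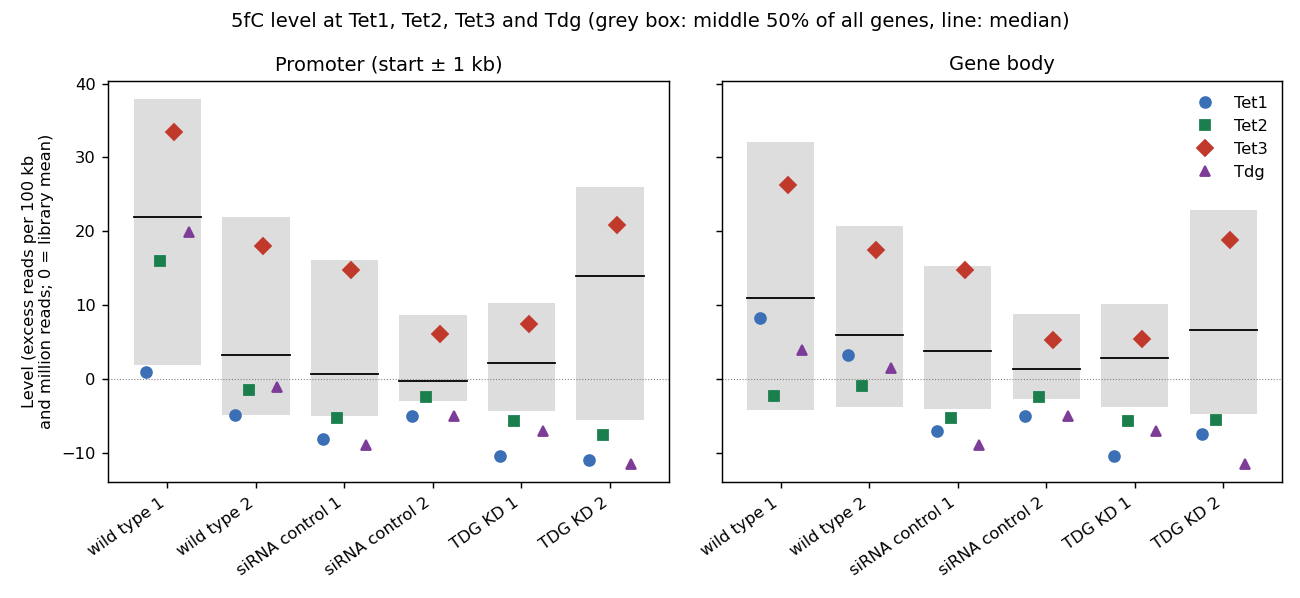
Level of the 4 genes in each library (excess reads per 100 kb and 1 M reads, 0 being the library mean), for promoters on the left and gene bodies on the right. Grey boxes span the middle 50% of all protein-coding genes and black lines their median. With promoters at the GENCODE starts, Tet3 is the highest of the 4 in every library, and Tet1 and Tdg lie below the boxes in the 4 siRNA libraries.

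The differences between the genes were tested within libraries by an exact two-sided sign-flip permutation test over the 6 libraries. These share 1 input, so they are not fully independent, and the test takes them as if they were. The Tet3 promoter exceeded that of Tdg by 19.1 ± 7.91 (SD, n = 6), that of Tet1 by 23.1 ± 8.17 and that of Tet2 by 17.8 ± 6.78. Each difference had one sign in 6 of 6 libraries, with exact p = 0.0312, the smallest that 6 libraries allow, and p = 0.0469 after adjustment over the 6 pairs. With Tet1 at its GENCODE start, the Tet2 promoter stood above that of Tet1 by 5.34 ± 4.76 in 6 of 6 libraries with the same p values. At the RefSeq start of Tet1 the wild type levels were 25.5 and 18.0, above the 15.9 and -1.46 of Tet2. The 4 siRNA libraries kept their GENCODE start values there, and no test was run. The order of the means turned when the longest coding transcript set the start, where Tet1 minus Tet2 was 5.84 (exact p = 0.5). With that start Tet3 minus Tdg was 18.9, Tet1 minus Tet3 -16.9 and Tet2 minus Tet3 -22.8, each with exact p = 0.0312 and an adjusted p of 0.0625, so no pair passed. No pair passed with any library left out either, since 5 libraries allow no exact p below 0.0625. The pairs Tet1 and Tdg (mean difference -4.09, exact p = 0.25) and Tet2 and Tdg (1.25, exact p = 0.375) did not differ beyond their spread.

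Over gene bodies Tet3 exceeded Tdg by 19.2 ± 7.62 (SD, n = 6), Tet2 by 18.3 ± 7.93 and Tet1 by 17.7 ± 5.64, again in 6 of 6 libraries. Exact p was 0.0312 for each and 0.0625 after adjustment over the 6 pairs, so none of these passed the threshold of 0.05. The bodies of Tet1, Tet2 and Tdg differed from each other by means of 0.622 to 1.50, with exact p of 0.219 to 0.875.

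The sign-flip test could not reach 0.05 for promoter against body of the same gene, because libraries in which 1 domain covered both windows gave a difference of 0. The smallest p possible was 0.125 for Tet1 (4 libraries not at 0), 0.25 for Tet2 (3 libraries), 0.0625 for Tet3 (5 libraries) and 0.5 for Tdg (2 libraries). The promoter minus body difference was 2.09 ± 2.59 for Tet3 (SD, n = 6, exact p = 0.0625) and -3.35 ± 3.64 for Tet1 (exact p = 0.125). It was 2.61 ± 7.71 for Tet2 and 2.24 ± 6.83 for Tdg, both with exact p = 1. In wild type 1, the library with the narrowest domains, the promoters of Tet2, Tdg and Tet3 stood 18.3, 16.0 and 7.09 above their bodies, and the difference for Tet1 was -7.27. The difference was at or above 0 in 6 of 6 libraries for Tet3 and at or below 0 in 6 of 6 for Tet1.

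Knockdown and control were compared to ask whether the relative 5fC level at these genes moved when their glycosylase was targeted. Each level is scaled to the reads of its library and has the library mean taken off. A rise of 5fC common to the whole genome would therefore not show, and the total amount of 5fC was not measured here. In limma's test across all genes, no promoter and no gene body passed an adjusted p of 0.05 (0.00% in each direction), and 0.911% of promoters and 0.897% of bodies had an unadjusted p under 0.05. The TDG KD minus siRNA control difference of the promoter level was -4.10 ± 6.37 (SE) for Tet1, -2.78 ± 7.88 for Tet2, 3.74 ± 8.72 for Tet3 and -2.25 ± 8.66 for Tdg, all with limma adjusted p = 1.00. The median over all promoters was 2.58. For bodies the differences were -2.89 ± 3.54, -1.76 ± 3.14, 2.10 ± 6.53 and -2.25 ± 3.59 in the same order, each with limma adjusted p = 0.992, and the median of all bodies was 1.32.

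The direction at Tet3 rested on single libraries. Without TDG KD 2 the promoter difference was -2.93 and the body difference -4.61, and without siRNA control 2 they were -0.591 and -2.65. As given above, the Tet3 promoter was wholly enriched in both controls and in TDG KD 2 and not at all in TDG KD 1 (exact permutation p = 1, and 0.333 is the smallest that 2 libraries against 2 allow). Within library name prefixes the share difference was -100.0 percentage points between the BHAM libraries (siRNA control 1 and TDG KD 1) and 0 between the EAR libraries (siRNA control 2 and TDG KD 2). TDG KD 1 had 4901 enriched domains in all, against 10032 to 389620 in the other libraries. Its Tet3 promoter was unconfident rather than background, and the level there stood at the 66.3 percentile of promoters in that library. For Tet1, Tet2 and Tdg the promoter share was 0% in all 4 siRNA libraries.

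The same values were compared between control and wild type. The siRNA control minus wild type difference of the promoter level was -4.62 ± 6.37 (SE) for Tet1, -11.1 ± 7.88 for Tet2, -15.4 ± 8.72 for Tet3 and -16.4 ± 8.66 for Tdg, with limma adjusted p of 0.414 to 0.661. The median of all promoters was -10.9. The size of the 4 promoter differences rested on single wild type libraries. Without wild type 1 they were -1.66, -2.37, -7.68 and -5.92 in the same order, with limma adjusted p = 0.999, and without wild type 2 they were -7.58, -19.8, -23.0 and -27.0, with limma adjusted p of 0.0635 to 0.321. For bodies it was -11.8 ± 3.54 for Tet1, -2.22 ± 3.14 for Tet2, -12.0 ± 6.53 for Tet3 and -9.73 ± 3.59 for Tdg, with limma adjusted p of 0.331 to 0.654, against a median of -5.40. No gene passed the adjusted threshold in limma in either window (0.00%), and 10.6% of promoters and 13.0% of bodies had an unadjusted p under 0.05. Among the 4 genes the bodies of Tet1 and Tdg were in that group, with limma's p of 0.0199 and 0.0410 before adjustment and an adjusted p of 0.331 each. With single libraries left out limma's unadjusted p ranged from 0.0252 to 0.113 for the Tet1 body and from 0.0545 to 0.211 for the Tdg body. Both wild type libraries carry the BHAM prefix, so this comparison has no EAR libraries on one side.

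Other genes of the pathway were taken from chosen lists of DNA methyltransferases, glycosylases, repair enzymes and TET partners. Counts below are of the listed genes only. At least 50% of the promoter was enriched for 5 of 5 genes that write or maintain 5mC in both wild type libraries, siRNA control 1 and TDG KD 2, for 4 of 5 in siRNA control 2 and for 1 of 5 in TDG KD 1. Over all promoters the shares were 53.1% and 47.0% in wild type, 43.4% and 39.8% in the siRNA controls, and 15.3% and 53.7% in TDG KD. Dnmt1, the maintenance methyltransferase, had a median promoter level of 16.6 over the 6 libraries, and the de novo enzymes Dnmt3a and Dnmt3b had 20.2 and 16.1. Uhrf1, which brings Dnmt1 to replicating DNA, had 28.0, and Dnmt3l had 23.1. All of these stood above the medians of Tet1 (-6.58), Tet2 (-3.83) and Tdg (-6.07), and Tet3 (16.4) fell among them.

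Of the 8 listed DNA glycosylases besides Tdg, 7 had an enriched promoter in each wild type library and 6 in each siRNA control. In TDG KD 1 there were 2 and in TDG KD 2 all 8. Over all promoters the share was 39.8% to 53.7% in the 5 libraries other than TDG KD 1 and 15.3% in that one. Smug1 and Ung, which remove uracil, had median promoter levels of 15.5 and 23.9, and Neil1 and Neil2, which remove oxidised bases, 27.8 and 13.7. Neil3 had 5.53, the lowest median of the 8, with an enriched promoter in 2 libraries. Mbd4, which like Tdg acts on G:T mismatches, had 17.8. Of the 7 listed genes that act after the glycosylase, 5 and 4 were enriched in wild type, 4 and 5 in the siRNA controls, and 1 and 7 in TDG KD, beside the same shares of all promoters. Their median promoter level was 0.206 for Apex1, which cuts at abasic sites, 22.5 for the polymerase Polb and 20.9 for Xrcc1, a scaffold for ligation.

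Among 7 TET partners, cofactor enzymes and relatives of the CXXC domain, 4 promoters were enriched in both wild type libraries, siRNA control 2 and TDG KD 2, 3 in siRNA control 1 and none in TDG KD 1. These counts lay near the shares over all promoters, 39.8% to 53.7% in the first 5 libraries and 15.3% in TDG KD 1. Cxxc4, which lies beside Tet2 in the genome and encodes a regulator of TET2, had a median promoter level of -5.75, and Ogt, whose product binds TET proteins, had -3.13. Idh1 had -8.32 and Idh2 12.3, both enzymes that make 2-oxoglutarate, which TET proteins need. No gene of these lists passed the limma threshold in either comparison. For TDG KD minus siRNA control, 5 of 5 methylation genes, 7 of 7 repair genes, 6 of 8 glycosylases and 3 of 7 partners had a promoter difference above 0, with list medians of 7.09, 7.30, 3.44 and -0.0107 beside the median of 2.58 over all promoters. That last median was -0.856 without TDG KD 2 and 6.52 without TDG KD 1. The share of all promoters above 0 was not counted. Their median over the 6 libraries was itself above 0, so the counts above 0 are not read as a rise of these lists.

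**Figure D5:**
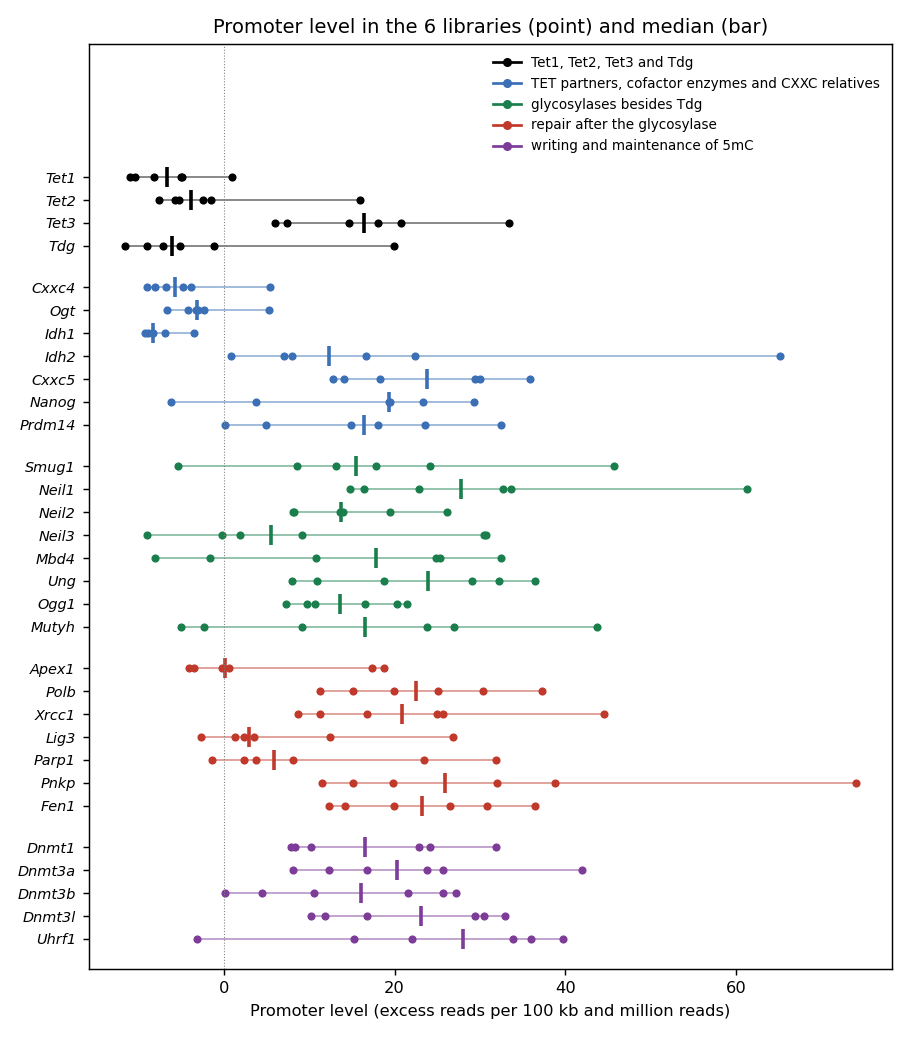
Promoter level of the 4 genes and of the pathway lists (excess reads per 100 kb and 1 M reads), with 1 point per library and a bar at the median of the 6. Tet1, Tet2 and Tdg have medians below 0, shared in the lists by Cxxc4, Ogt and Idh1.

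The genes most like each of the 4 were found by the Euclidean distance over 12 values, the promoter and body level in each library, each divided by its SD over the 19831 genes compared. For Tet3 these were Fam167a (distance 0.378), Cdx2 (0.426) and Slc6a18 (0.484), where the median gene stood at 3.52. For Tet2 they were Gm106 (0.267), Zscan21 (0.324) and Pdcd2 (0.329). Tet1 was nearest to 2810030E01Rik (0.553), Tex21 (0.637) and Chd8 (0.646), and Tdg to AA474408 (0.617), Crebzf (0.624) and Ccndbp1 (0.624). Values of all 12 positions rest on 6 libraries and 1 input.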

How the data were processed

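5fC pulldown libraries of wild type, siRNA control and TDG KD cells (2 each) were analysed, with replicates numbered in accession order. Alignment by the authors was to mm9 (BWA 0.6.1, per the submitters' processing notes). They kept reads of mapping quality 15 or more, and called domains with rseg in 100 bp bins for each library against 1 input. The deposited score of a domain is the mean pulldown minus input read difference per bin, without depth scaling. A second deposited score, which grows with domain width, was not used. Read totals (20.4 to 45.9 M) came from the study's supplement. Counts per region were not used, so no counting interval is given.

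Levels were length-weighted means of the score minus the library mean, multiplied by 1000 and divided by M reads. Windows covered by domains over less than 50% were left out, leaving 22074 promoters and 19853 bodies. Unconfident bases counted as not enriched. Gene models were GENCODE M1 and sequence NCBIM37, the genome of mm9. RefSeq promoters (GRCm38.p6) were placed on mm9 by exact match for 4 of 4 members, and no coordinate of that build is given. Differences between groups used limma 3.58.1 (R 4.3.3) over all genes and 6 libraries with Benjamini-Hochberg adjustment and a threshold of 0.05. Differences within libraries used exact sign-flip tests, and enriched shares exact permutation tests, in Python 3.11.15. The limma test was checked on simulated data. Genes named were the 4 members, genes within their flanks, the 3 nearest by distance and part of each pathway list, not always in list order. Alternatives changed scaling, windows, gene starts, the variance model, the prefix block and single libraries. The members and lists were chosen with earlier results of these data known.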

Additional observations from a re-analysis of the deposited data

How the results depend on the processing

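The labels give no replicate numbers to pair groups by. With the library name prefix as a block in limma, which pairs 1 siRNA control with 1 TDG KD library in each prefix, 0 genes passed in each window and comparison. The count of bodies called was 0 and became 5 (TDG KD minus siRNA control) and 11 (siRNA control minus wild type) without taking off the library mean, 1 and 2 with a trend in the prior variance, and 1 with the whole gene feature for siRNA control minus wild type. The cause was not tested. The 4 pairs of promoters called became 0 when the longest coding transcript set the start and with each library left out (range 0 to 0), since 5 libraries allow no exact p below 0.0625.

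Uncalled differences changed sign as follows. For TDG KD minus siRNA control, Tet3 gave -4.27 (promoter) and -5.91 (body) without taking off the library mean, and -4.10 and -3.13 as a percentile. With single libraries left out it ranged from -2.93 to 10.4 (promoter) and -4.61 to 8.81 (body), lowest without TDG KD 2 and highest without TDG KD 1, and was -0.591 and -2.65 without siRNA control 2. As percentiles Tdg gave 3.25 and 3.62 and the Tet1 body 2.59, and for siRNA control minus wild type the Tet3 promoter gave 1.07. With the longest coding start, siRNA control minus wild type was 4.75 for the Tet2 promoter, promoter minus body 2.54 for Tet1 and -2.86 for Tet2, and the promoter pairs Tet1 minus Tet2, Tet1 minus Tdg and Tet2 minus Tdg 5.84, 1.94 and -3.91. With single libraries left out, promoter minus body ranged from -0.520 to 3.54 for Tet2 and from -0.522 to 3.20 for Tdg, both lowest without wild type 1. The body pair Tet1 minus Tet2 ranged from -1.37 (without wild type 1) to 1.70, and Tet2 minus Tdg from -0.148 (without TDG KD 2) to 2.29. The depth and cut of TDG KD 1 limit every enriched share that includes it.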
